A study of Mus musculus with 8 samples.

Results

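Protease inhibitor genes of neutrophils were followed across genotype and Toll-like receptor stimulation. The genes were listed by name, with earlier results of these data known, and are 10 of the 24421 genes in the count table: Slpi, Serpinb1a, Serpinb2, the stefin A copies Stfa1, Stfa2, Stfa3 and Stfa2l1, the cystatins Cstb and Cst3, and Timp2. Sequencing libraries were made from bone marrow neutrophils taken from 8-week-old female mice on the C57BL/6 background, either wild type (WT) or Padi4 knockout (Padi4 KO), the latter carrying a deletion of exon 1 of Padi4. Padi4 encodes peptidylarginine deiminase 4, an enzyme that converts arginine in proteins to citrulline. Neutrophils were isolated with magnetic beads and were either left unstimulated or given the TLR7 agonist R848 at 1 µg/ml for 6 h, which gave 4 groups of 2 libraries. The titles of the unstimulated samples give 0 h, whereas the methods describe 6 h of culture for them too. If the titles hold, every R848 response below also contains the effect of time in culture. The methods state that samples were run in duplicate. Neither they nor the labels say whether the 2 libraries of a group came from separate mice. The p-values therefore measure only the spread between libraries, which may not cover the spread between mice.

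Neutrophils store serine proteases such as elastase, proteinase 3 and cathepsin G in granules, and they also carry lysosomal cysteine cathepsins and matrix metalloproteinases. Each class has its own inhibitors. Slpi is a secreted inhibitor of elastase and cathepsin G, and serpins such as Serpinb1a form covalent complexes with neutrophil serine proteases inside the cell. Stefins and cystatins plug the active site of cysteine cathepsins, and Timp2 binds matrix metalloproteinases.

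The 4 stefin A genes are related copies, which bears on how their reads can be assigned. Stfa2 and Stfa2l1 had 96.5% identity over the coding bases, and the other pairs of the 4 had 76.9% to 82.3%. They lie in a cluster of 10 stefin A genes on chromosome 16 at chr16:36119946-36455392 (GRCm38, GENCODE M21), a span of 335.4 kb. Each of the 4 has 3 exons. Stfa2l1 lies at chr16:36156811-36161953 and Stfa1 at chr16:36276951-36285373, both on the plus strand. Stfa2 lies at chr16:36403992-36408457 and Stfa3 at chr16:36450537-36455392, both on the minus strand. The coding stretch of 75 bases around the loop that enters the cathepsin active site, the QxVxG motif shared by stefins and cystatins, is printed to show how closely the copies match. It covers coding positions 106 to 180 of Stfa1 and 124 to 198 of the other copies, counted from the first base of the start codon. Capitals mark the 19 positions at which the 4 copies are not all the same.
Stfa1: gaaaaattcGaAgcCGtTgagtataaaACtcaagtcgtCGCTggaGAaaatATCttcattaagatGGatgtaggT
Stfa2: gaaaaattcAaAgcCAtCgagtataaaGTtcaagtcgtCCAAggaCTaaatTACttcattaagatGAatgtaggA
Stfa3: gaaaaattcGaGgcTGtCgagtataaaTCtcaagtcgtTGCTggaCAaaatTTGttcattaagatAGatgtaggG
Stfa2l1: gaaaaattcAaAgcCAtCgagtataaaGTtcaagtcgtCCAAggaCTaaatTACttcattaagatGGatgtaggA

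Stfa2 and Stfa2l1 were the closest pair of the 4 copies, with 11 differing bases in a coding length of 312. Stfa1 was closest to a neighbour outside the 4, BC100530, from which it differed at 6 of 294 coding bases. Of all windows of 50 bases in the annotated Stfa1 transcripts, 26.9% also occurred in transcripts of another gene. The share was 24.6% for Stfa2l1, 15.9% for Stfa2 and 0 for Stfa3. With windows of 100 bases, the share fell to 5.6% for Stfa1 and to 0 for the other 3 copies. The read length is not given in the sources used here. Counts of Stfa1, Stfa2 and Stfa2l1 are therefore uncertain as to the copy. The sum of the 4 copies, Stfa3 included, is also given. Of the shared windows, only those between Stfa2 and Stfa2l1 lie within this sum. The handling of reads that match several genes is not given, and any left out before counting are missing from the sum too. Windows that Stfa1 shares with BC100530, BC117090 and Gm15845 reach outside the sum. So do those that Stfa2 and Stfa2l1 share with Gm49652 and Stfa2 with Gm4758. Among the other members, 3.42% of the 50-base windows of Serpinb1a were shared with Serpinb1b, Serpinb1c or Serpinb1-ps1, and none of the windows of Slpi, Serpinb2, Cstb, Cst3 and Timp2 were shared with another gene.

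Promoter sequences from RefSeq (GRCm38.p6) were found for 8 of the 10 members. The 180 bases before the transcription start of Stfa2l1 and Stfa3 are printed because these 2 copies rise after R848 as described below and their windows lie wholly upstream of the annotated genes. Capitals mark GAGGAA, the sequence recognised by the myeloid transcription factor PU.1, which reads TTCCTC here because it lies on the opposite strand. The Stfa2l1 window is chr16:36156631-36156810 on the plus strand, and the Stfa3 window is chr16:36455393-36455572 on the minus strand.
Stfa2l1: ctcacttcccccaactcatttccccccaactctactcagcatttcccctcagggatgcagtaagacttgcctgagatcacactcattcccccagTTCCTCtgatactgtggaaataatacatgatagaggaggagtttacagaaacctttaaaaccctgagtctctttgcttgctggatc
Stfa3: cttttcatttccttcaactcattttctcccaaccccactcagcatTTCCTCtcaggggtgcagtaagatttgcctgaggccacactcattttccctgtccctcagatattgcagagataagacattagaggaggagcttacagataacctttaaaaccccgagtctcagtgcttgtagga

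The 4 stefin A promoters each held GAGGAA, at 178 to 173 bases before the start in Stfa1, 82 to 77 in Stfa2, 135 to 130 in Stfa3 and 86 to 81 in Stfa2l1. Of all 32851 mouse promoter windows of this length, 17.1% held it on either strand. The 4 windows are copies with 79.8% to 92% identity, so they are not independent matches. The C/EBP motif TTNNGNAA, present in 27.2% of all windows, was found in Stfa1, Stfa2, Stfa2l1, Slpi and both promoters of Serpinb2, and not in Stfa3. The letters TATAAA (8.94% of all windows), TGANTCA for AP-1 (4.97%) and the NF-kB motif (0.262%) were not in the stefin windows. Both strands were searched, and a match is a description of letters, not a binding site.

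The 8 libraries held 562446 to 1177972 counts on genes, so 3 counts, the smallest level treated as measurable, correspond to 2.55 to 5.33 CPM (counts scaled to a common library total). This limit covers counting error only. The 10 members together took 0.158% to 0.231% of the counts of each library. Padi4 had 590 and 527 counts in unstimulated WT, 40 and 54 in unstimulated Padi4 KO, 166 and 234 in WT after R848, and 34 and 21 in Padi4 KO after R848. The neutrophil identity held on markers. Those of granule-forming neutrophils (16 of 16 genes, among them Camp, Ltf and Ngp) summed to 60130 to 92785 CPM of the library total, and those of mature neutrophils (11 genes, among them Cxcr2 and Csf3r) to 12612 to 15335 CPM. Ly6g was also on that list but is not in the count table under this name, so it could not be read. Markers of other cells were far lower. The 15 monocyte and macrophage markers summed to 376 to 3107 CPM and the 14 erythroid markers to 29.9 to 1387 CPM. The latter include 6 hemoglobin genes at 0 in every library. Slc4a1 of the same list had 153 scaled CPM in unstimulated Padi4 KO and 488 in Padi4 KO after R848 (group means). Whether the hemoglobin genes could be counted was not tested, so their 0 is no measure of erythroid cells. The stromal and endothelial markers (14 genes, Kitl at 0) summed to 101 to 818 CPM and the dendritic cell markers (11 genes) to 51.6 to 127 CPM. The eosinophil, basophil and mast cell markers (12 genes, Ear2 and Il5ra at 0) summed to 24.7 to 98.3 CPM, and the B and T cell markers (12 genes, Ebf1, Cd3e and Cd8a at 0) to 11.9 to 46.8 CPM.

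Levels per kb of transcript put Slpi first among the members in every group. They use the full annotated transcript length, with no correction for windows shared between genes. The places of Stfa1, Stfa2 and Stfa2l1 are therefore uncertain. In unstimulated WT neutrophils the scaled CPM per kb was 481 ± 13.8 for Slpi, 386 ± 43.9 for Serpinb1a, 324 ± 6.90 for Cst3 and 237 ± 3.5 for Stfa2l1 (mean ± SD, n = 2). These 4 genes stood above Timp2 (74.7 ± 1.01), Cstb (53.8 ± 7.28), Stfa3 (43.7 ± 3.41), Stfa1 (40.3 ± 17.4) and Stfa2 (21.9 ± 15.4). From Cstb down, each gene and the next in this order differed by less than the sum of their SDs. After R848 the order in WT was Slpi (1232 ± 44.4), Stfa2l1 (899 ± 22.1), Cst3 (336 ± 43.0), Stfa3 (309 ± 53.4), Stfa1 (201 ± 56.9), Serpinb1a (196 ± 0.624), Cstb (195 ± 27.3), Stfa2 (98.6 ± 1.26) and Timp2 (59.7 ± 7.44). From Cst3 to Cstb in this order, each gene and the next differed by less than the sum of their SDs. In unstimulated Padi4 KO the order began with Slpi (327 ± 27.3), Cst3 (298 ± 1.72), Serpinb1a (240 ± 7.04) and Stfa2l1 (164 ± 1.28), followed by Timp2 (49.3 ± 9.74), Cstb (42.0 ± 3.64), Stfa1 (15.8 ± 4.24), Stfa2 (11.8 ± 3.65) and Stfa3 (10.7 ± 7.33). There Slpi and Cst3 differed by less than the sum of their SDs, as did Timp2 and Cstb, Stfa1 and Stfa2, and Stfa2 and Stfa3. In Padi4 KO after R848 it ran Slpi (866 ± 31.8), Stfa2l1 (657 ± 48.3), Cst3 (330 ± 10.7), Cstb (183 ± 8.62), Stfa3 (138 ± 0.209), Serpinb1a (125 ± 5.67), Stfa1 (90.7 ± 8.18), Stfa2 (78.6 ± 6.26) and Timp2 (35.3 ± 0.157). Only Stfa1 and Stfa2 were neighbours within the sum of their SDs in that group. Stfa2l1 thus moved from the fourth place to the second in both genotypes.

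**Figure D1:**
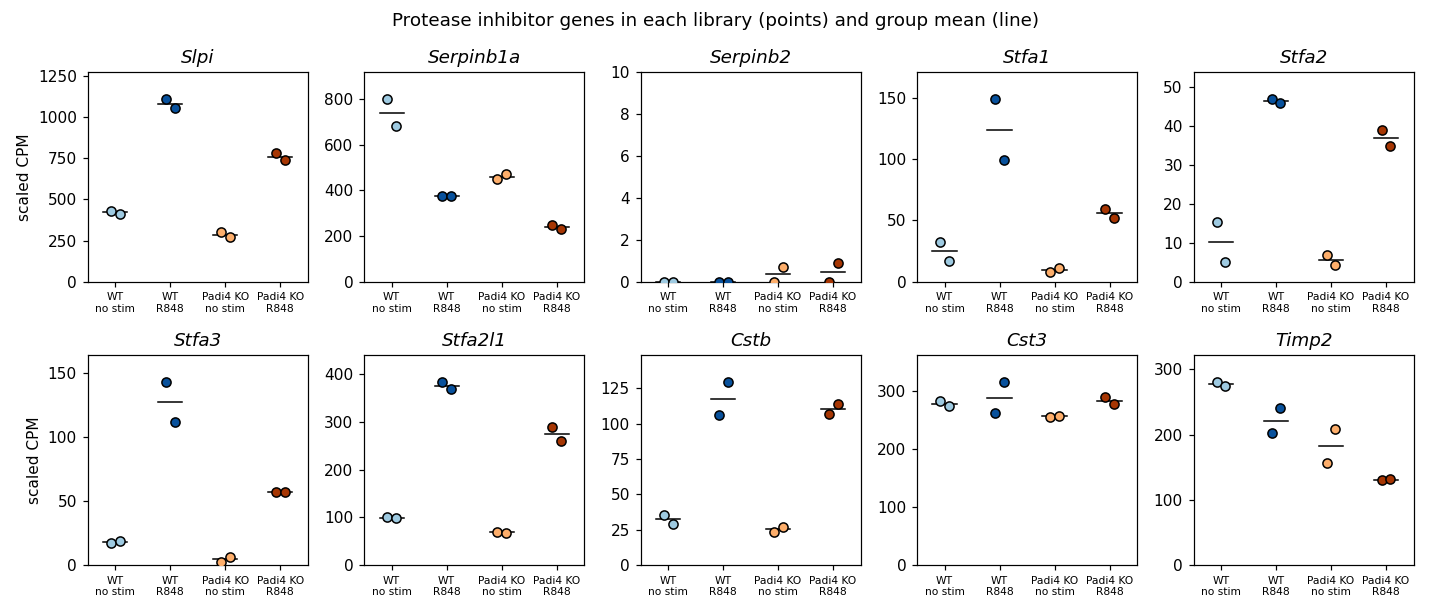
Scaled CPM (vertical axis, 1 panel per gene) of the 10 protease inhibitor genes in each of the 8 libraries (points) with the mean of the 2 libraries of a group (line). Slpi, Cstb and the 4 stefin A copies lie higher after R848 than without stimulation in both genotypes, Serpinb1a lies lower, and Serpinb2 is at 0 or 1 count.

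The first comparison asked which inhibitors respond to R848 in WT neutrophils. Slpi, the 4 stefin A copies and Cstb rose, by 2.56-fold to 6.98-fold, and no member fell by the rule used for responses, a false discovery rate below 0.1 together with a change of over 2-fold. Thus 6 of 10 members were called higher, where 18% of all 12254 genes tested were called in either direction, 7.17% higher and 10.8% lower. The count of 0 members called lower was the same with DESeq2, and 2 members were lower at an unadjusted p below 0.05, Serpinb1a and Timp2. All 10 members passed the filter on low counts, Serpinb2 only through single counts in 2 libraries. The median log2 fold change was 1.85 over the 9 members whose mean count reached 10, against -0.07 over the 6912 genes of that depth.

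Slpi had 430 and 413 scaled CPM in unstimulated WT libraries and 1107 and 1052 after R848. In Padi4 KO it had 303 and 269 without stimulation and 778 and 739 after R848. The stimulated libraries were above the unstimulated ones in each genotype, without overlap. The rise was 2.56-fold in WT (log2 fold change 1.35, SE 0.095; edgeR quasi-likelihood test, Benjamini-Hochberg adjusted p = 2.07e-44) and 2.67-fold in Padi4 KO (1.42, SE 0.089; adjusted p = 2.43e-55). Slpi lies on chromosome 2 at chr2:164354070-164389095, minus strand, and an exon of the microRNA gene Mir7678 overlaps it on the same strand.

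Serpinb1a, an intracellular inhibitor of elastase, proteinase 3 and cathepsin G, moved the other way. It had 799 and 680 scaled CPM in unstimulated WT, 377 and 375 with R848 in WT, 451 and 470 in Padi4 KO left unstimulated and 247 and 232 in Padi4 KO after R848. The lowest unstimulated library of each genotype was above both of its stimulated libraries. The ratio was 1.97-fold lower in WT (log2 -0.98, SE 0.10; edgeR adjusted p = 6.90e-20) and 1.93-fold lower in Padi4 KO (-0.95, SE 0.10; edgeR adjusted p = 3.10e-21), just short of the 2-fold needed for a call. It passed 2-fold in Padi4 KO with DESeq2 (-1.03), relative log expression factors (-1.03), edgeR's own filter (-1.01) and library size alone (-1.32), and in WT with the last 2 of these (-1.03 and -1.28). It also passed 2-fold in WT without unstimulated WT library 2 (-1.09), and in Padi4 KO without any 1 of the 4 R848 libraries (-1.03 to -1.14). Serpinb1a is at chr13:32842092-32851185, minus strand.

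Serpinb2, known as plasminogen activator inhibitor of macrophages and a gene strongly induced by inflammatory signals in other myeloid cells, had 1 count in 1 unstimulated and 1 count in 1 R848-treated Padi4 KO library and 0 in the remaining 6 libraries. Every group was under the limit of 3 counts per library, so no fold is given and a level under 5.33 CPM was not detectable at this depth. It lies at chr1:107511423-107535478, plus strand.

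Stfa3, a further stefin A copy, had 17.0 and 19.0 scaled CPM in unstimulated WT and 143 and 112 after R848. The Padi4 KO libraries had 2.26 and 6.53 without stimulation and 56.9 and 57.0 with R848. The rise was 6.98-fold in WT (log2 2.80, SE 0.28; edgeR adjusted p = 3.96e-22) and 11.4-fold in Padi4 KO (3.51, SE 0.33; adjusted p = 1.83e-24). The unstimulated Padi4 KO value rests on 2 and 9 counts, and without library 2 of that group the log2 rise was 4.56. No window of 50 or 100 bases of Stfa3 was shared exactly with another gene, and shorter or inexact matches were not searched.

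Stfa2l1 was the most abundant stefin A copy among the members. Its level was 100 and 98.4 scaled CPM in unstimulated WT and 383 and 370 after R848. The Padi4 KO libraries had 69.0 and 68.2 without stimulation and 290 and 261 with R848. It rose 3.78-fold in WT (log2 1.92, SE 0.15; edgeR adjusted p = 2.33e-36) and 4.01-fold in Padi4 KO (2.01, SE 0.13; adjusted p = 1.37e-50). In each genotype the groups were far apart compared with the spread between libraries.

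Stfa1 had 32.5 and 17.3 scaled CPM in unstimulated WT and 149 and 99.1 after R848. The Padi4 KO libraries had 7.91 and 11.6 without stimulation and 59.5 and 52.4 with R848. The rise was 4.82-fold in WT (log2 2.27, SE 0.26; edgeR adjusted p = 7.08e-17) and 5.45-fold in Padi4 KO (2.45, SE 0.28; adjusted p = 1.08e-16). The libraries of each WT group lay far apart for this gene, although the groups did not overlap.

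Stfa2 had 15.5 and 5.18 scaled CPM in unstimulated WT and 46.9 and 46.0 after R848. The Padi4 KO libraries had 6.78 and 4.35 without stimulation and 39.1 and 34.9 with R848. Its unstimulated libraries held 3 to 10 counts. It rose 4.33-fold in WT (log2 2.12, SE 0.41; edgeR adjusted p = 2.98e-06) and 6.82-fold in Padi4 KO (2.77, SE 0.37; adjusted p = 1.30e-12). The WT value was 3.13 without unstimulated WT library 1 and 1.58 without library 2, both still called.

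Because reads may be shared among near copies, the 4 stefin A counts were also summed. The sums were 107 and 81 counts in unstimulated WT, 354 and 354 in R848-treated WT, 76 and 125 in Padi4 KO left unstimulated and 501 and 441 in R848-treated Padi4 KO. The sum rose 4.39-fold in WT (log2 2.13, SE 0.12; edgeR adjusted p = 1.78e-65) and 4.79-fold in Padi4 KO (2.26, SE 0.12; adjusted p = 9.73e-81). Stfa2l1 made up 60.7% and 70.4% of this sum in unstimulated WT and 53.1% and 59.0% after R848. In Padi4 KO its share was 80.3% and 75.2% without stimulation and 65.1% and 64.4% after R848. The share was thus lower after R848 in both genotypes without overlap of the libraries, a difference that was not tested.

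Cstb (stefin B), which inhibits cathepsins B, H, L and S in the cytosol and nucleus, had 35.6 and 29.4 scaled CPM in unstimulated WT and 106 and 129 after R848. In Padi4 KO it had 23.7 and 26.8 without stimulation and 107 and 114 after R848. It rose 3.62-fold in WT (log2 1.85, SE 0.25; edgeR adjusted p = 1.26e-12) and 4.28-fold in Padi4 KO (2.10, SE 0.20; adjusted p = 2.55e-25). Cstb is at chr10:78425669-78427622, plus strand, outside the stefin A cluster.

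Cst3 (cystatin C), the secreted cysteine protease inhibitor, stood apart from the stefins. It had 283 and 275 scaled CPM in unstimulated WT, 263 and 315 in R848-treated WT, 256 and 258 in Padi4 KO left unstimulated and 291 and 278 in R848-treated Padi4 KO. The WT groups overlapped. The log2 difference was 0.06 in WT (95% interval -0.19 to 0.31; edgeR adjusted p = 0.811) and 0.15 in Padi4 KO (-0.06 to 0.35; edgeR adjusted p = 0.314), and both signs turned with scaling by library size alone (-0.25 and -0.23). Cst3 is at chr2:148871722-148875692, minus strand.

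Timp2, an inhibitor of metalloproteinases that also takes part in the activation of pro-Mmp2 by Mmp14, had 280 and 275 scaled CPM in unstimulated WT and 202 and 241 after R848. In Padi4 KO it had 157 and 208 without stimulation and 131 and 131 after R848. Both stimulated libraries were below both unstimulated ones in each genotype. The log2 difference was -0.32 in WT (SE 0.13; edgeR adjusted p = 0.0667) and -0.51 in Padi4 KO (SE 0.12; edgeR adjusted p = 0.000233), under the 2-fold of the rule for a response. Timp2 is at chr11:118301069-118355740, minus strand.

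In Padi4 KO neutrophils the same 6 genes were called as in WT, all higher, where 16.9% of the genes tested were called in either direction, 8.07% higher and 8.84% lower. The count of members called lower was 0 with edgeR, 1 with DESeq2 (Serpinb1a), and 2 at an unadjusted p below 0.05. The median log2 fold change of the same 9 members was 2.01, against 0.08 over all genes of that depth. Markers of other cells also differed with treatment. In WT the 15 monocyte and macrophage markers summed to 376 and 471 CPM without stimulation and 2898 and 2984 after R848, and in Padi4 KO to 863 and 876 without stimulation and 3107 and 2978 after R848. The rise of this sum lay in Adgre1 (39.1 to 2443 scaled CPM in WT, group means) and Csf1r (144 to 942), whereas Apoe, Ccr2 and Irf8 fell. Of the 14 genes of the list tested, 3 were called higher and 3 lower in WT (median log2 -0.02 over 8 genes) and 3 higher and 5 lower in Padi4 KO (median -0.27), so genes of the list moved both ways. The stromal and endothelial markers summed to 374 and 286 CPM without stimulation against 151 and 151 after R848 in WT, and to 663 and 818 against 105 and 101 in Padi4 KO. The dendritic cell markers summed to 54.6 and 51.6 CPM against 121 and 97.2 in WT, and to 83.7 and 88.9 against 112 and 127 in Padi4 KO. Of the 10 dendritic cell markers tested, 3 were called higher in WT and 2 in Padi4 KO, with 0 lower in either. Of all genes, 7.17% and 8.07% were called higher. Of the 8 erythroid markers tested, 4 were called lower in WT (median log2 -1.86) and 2 higher in Padi4 KO (median 0.25), and for the difference of response 5 were called higher (median 2.87). Their sum went from 128 and 112 CPM to 59.0 and 29.9 in WT and from 1244 and 1207 to 1374 and 1387 in Padi4 KO. The granule-stage neutrophil markers went from 92785 and 91152 to 78521 and 79615 in WT, and from 69276 and 69920 to 60130 and 60887 in Padi4 KO. The part of these shifts in the inhibitor values was not tested. In bulk RNA, fewer cells of a type and less RNA per cell cannot be told apart.

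**Figure D2:**
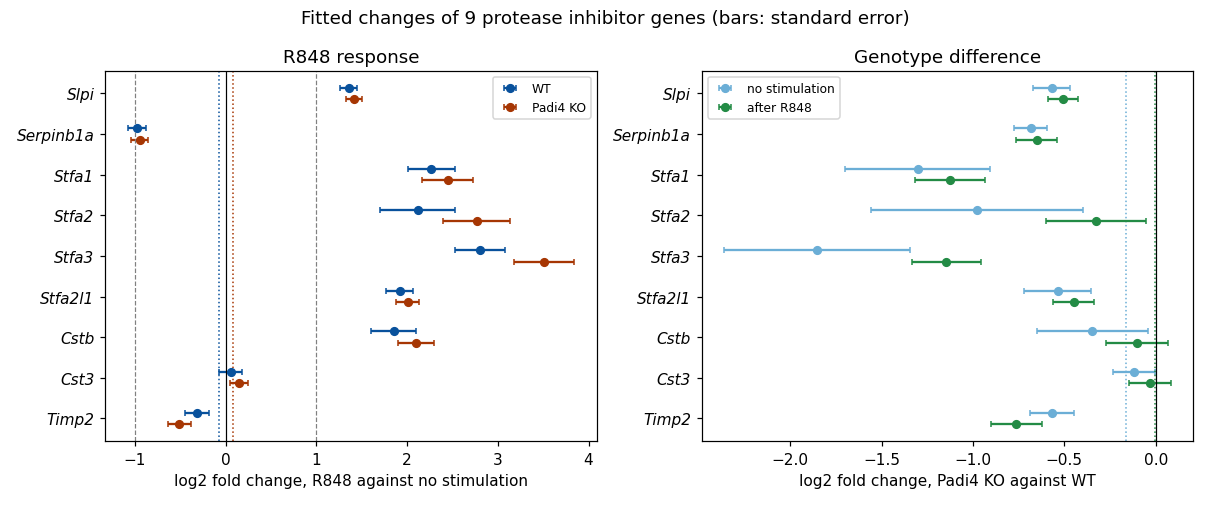
Log2 fold changes of 9 inhibitor genes with bars of 1 standard error, for R848 against no stimulation in each genotype (left) and for Padi4 KO against WT in each condition (right). Dotted lines mark the median of the 6912 genes with at least 10 counts on average and dashed lines mark 2-fold. In the left panel the points of both genotypes lie on the same side of 0 for each gene and are furthest apart for Stfa2 and Stfa3, and in the right panel the fitted values lie at or below 0.

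The next comparison asked whether the response differs between the genotypes. It was called for 0 of the 10 members with edgeR, 0 with DESeq2 and 0 at an unadjusted p below 0.05, where the rate for all genes was 4.71% (3.45% higher and 1.26% lower) at the same false discovery rate of 0.1. This leaves sizeable differences possible for the rare copies. The difference of log2 responses, Padi4 KO minus WT, was 0.06 for Slpi (95% interval -0.19 to 0.32), 0.03 for Serpinb1a (-0.25 to 0.31), 0.09 for Stfa2l1 (-0.33 to 0.50) and 0.09 for Cst3 (-0.23 to 0.41). It was -0.19 for Timp2 (-0.55 to 0.17), 0.24 for Cstb (-0.43 to 0.92) and 0.18 for Stfa1 (-0.64 to 1.00). For Stfa2 it was 0.65 (-0.58 to 1.89) and for Stfa3 0.71 (-0.34 to 1.76), the latter 1.75 without unstimulated Padi4 KO library 2 and 0.28 without library 1 of that group. The intervals of Slpi and Serpinb1a were thus narrow, whereas those of Stfa2 and Stfa3 reached more than 1 log2 unit. The stefin A sum gave 0.13 (SE 0.18; edgeR adjusted p = 0.854). All genes of this depth had a median difference of 0.18 with the TMM scaling and 0.02 with relative log expression factors, and the values of Slpi, Stfa2l1, Serpinb1a and Cst3 turned to negative with the latter (-0.09, -0.07, -0.12 and -0.07).

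The comparison of genotypes asked whether the inhibitors differ in level between Padi4 KO and WT. Without stimulation 6 of 10 members were lower in Padi4 KO, namely Slpi, Serpinb1a, Stfa1, Stfa3, Stfa2l1 and Timp2, where 23.9% of all genes tested were called, 9.55% higher and 14.4% lower. After R848 the same 6 members were lower, where 17.3% of all genes were called, 9.46% higher and 7.81% lower. The count of members called higher was 0 in both conditions with edgeR, with DESeq2 and at an unadjusted p below 0.05. The median log2 difference of the 9 members was -0.57 without stimulation and -0.51 after R848. Over all genes of that depth it was -0.16 and -0.0019 with the TMM scaling and -0.11 and -0.10 with relative log expression factors. These 2 comparisons share no library with each other, but both share their libraries with the R848 responses.

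Among the serine protease inhibitors, Slpi was 1.48-fold lower in Padi4 KO without stimulation (log2 -0.57, SE 0.10; edgeR adjusted p = 8.37e-07) and 1.42-fold lower after R848 (-0.51, SE 0.083; adjusted p = 3.76e-08). Serpinb1a was 1.61-fold lower (-0.68, SE 0.090; edgeR adjusted p = 2.73e-12) and 1.57-fold lower (-0.65, SE 0.11; adjusted p = 2.40e-07). For both genes every Padi4 KO library lay below every WT library of the same condition. These calls held with each scaling, including library size alone, where the log2 differences were smaller.

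Of the stefin A copies, Stfa3 was 3.61-fold lower in unstimulated Padi4 KO (log2 -1.85, SE 0.51; edgeR adjusted p = 0.00261) and 2.21-fold lower after R848 (-1.15, SE 0.19; adjusted p = 5.13e-08). The first value rests on 2 and 9 counts against 11 and 11, and was -2.89 without unstimulated Padi4 KO library 2. Stfa1 was 2.47-fold lower without stimulation (-1.30, SE 0.40; edgeR adjusted p = 0.00781) and 2.18-fold lower after R848 (-1.13, SE 0.19; adjusted p = 1.35e-07). Its unstimulated call was lost without unstimulated WT library 1 (-0.76; edgeR adjusted p = 0.471), the library with 21 counts against 10 in the other.

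Stfa2l1 was 1.45-fold lower without stimulation (-0.54, SE 0.18; edgeR adjusted p = 0.0212) and 1.37-fold lower after R848 (-0.45, SE 0.11; adjusted p = 0.000844). The unstimulated call was lost with DESeq2 (-0.48; adjusted p = 0.202), with library size alone (-0.25; edgeR adjusted p = 0.418) and without any 1 of 6 libraries: unstimulated WT library 1, unstimulated Padi4 KO library 2 and each of the 4 R848 libraries (-0.39 to -0.52). The call after R848 was lost with library size alone (-0.23; edgeR adjusted p = 0.156). Stfa2 gave -0.98 without stimulation (95% interval -2.12 to 0.16; edgeR adjusted p = 0.261) and -0.32 after R848 (-0.86 to 0.21; edgeR adjusted p = 0.529), and was not called. The stefin A sum was 1.73-fold lower without stimulation (-0.79, SE 0.16; edgeR adjusted p = 9.22e-06) and 1.58-fold lower after R848 (-0.66, SE 0.095; adjusted p = 2.14e-10).

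Timp2 was 1.48-fold lower in unstimulated Padi4 KO (log2 -0.57, SE 0.12; edgeR adjusted p = 4.07e-05) and 1.70-fold lower after R848 (-0.76, SE 0.14; adjusted p = 1.56e-06). The first call was lost with library size alone (-0.28; edgeR adjusted p = 0.101). Cstb gave -0.35 (95% interval -0.94 to 0.25; edgeR adjusted p = 0.489) and -0.10 (-0.43 to 0.23; edgeR adjusted p = 0.772), and the latter turned to 0.11 with library size alone. Cst3 gave -0.12 (-0.34 to 0.11; edgeR adjusted p = 0.533) and -0.03 (-0.26 to 0.20; edgeR adjusted p = 0.927), and both signs turned with library size alone (0.17 and 0.18). The mean level of Cst3 ranged from 257 to 289 scaled CPM over the 4 groups.

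Other markers differed with genotype in the same libraries. The granule-stage neutrophil markers were lower in Padi4 KO for 16 of 16 genes without stimulation and 13 of 16 after R848, with median log2 differences of -0.72 in both conditions, where 14.4% and 7.81% of all genes were lower and the medians over 6912 genes were -0.16 and -0.0019. Of the 8 erythroid markers tested, 7 were called higher in Padi4 KO without stimulation and 8 after R848, with median log2 differences of 3.05 and 6.22. The monocyte and macrophage markers summed to 376 and 471 CPM in WT against 863 and 876 in Padi4 KO without stimulation. After R848 the sums of both genotypes overlapped. Of the 14 genes of this list tested, 5 were called higher in Padi4 KO and 0 lower without stimulation (median log2 difference 0.65 over 8 genes). After R848, 4 were called higher and 1 lower (median 0.34). Of all genes, 9.55% and 9.46% were called higher. The summed level of the stromal and endothelial markers was higher in Padi4 KO without stimulation (374 and 286 in WT, 663 and 818 in Padi4 KO) and lower after R848 (151 and 151 in WT, 105 and 101 in Padi4 KO). Of the 10 genes tested, 3 were called higher and 1 lower without stimulation (median log2 difference 0.27 over 6 genes), and 1 was called after R848, lower (median -0.07). Mature neutrophil markers were lower in Padi4 KO for 7 of 11 genes without stimulation and 9 of 11 after R848, with median log2 differences of -0.33 and -0.52. The part of these differences in the lower inhibitor values was not tested.

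**Figure D3:**
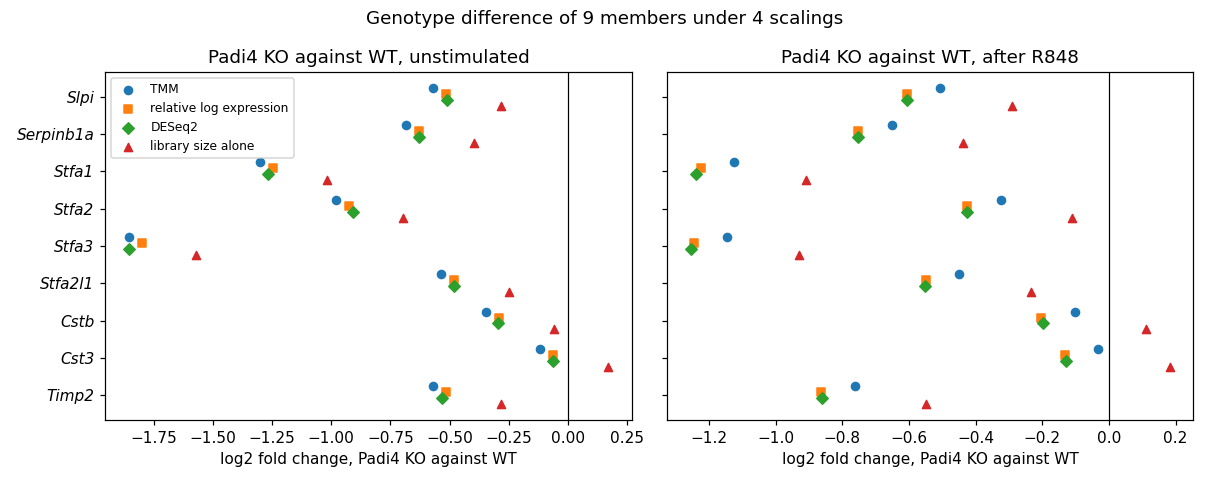
Log2 difference of Padi4 KO against WT for 9 inhibitor genes under 4 scalings, without stimulation (left) and after R848 (right). The points of Slpi, Serpinb1a, the 4 stefin A copies and Timp2 lie below 0 under each scaling, whereas Cst3 in both conditions and Cstb after R848 cross 0 with library size alone.

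The rest of the stefin A cluster was examined to see whether the copies among the members stand alone. Csta1 had 0 counts in all 8 libraries. Of the remaining 5 genes outside the members, all tested, 4 were called higher after R848 in WT and 4 in Padi4 KO, 0 were called lower with either edgeR or DESeq2 or at an unadjusted p below 0.05, and DESeq2 called 4 and 2 higher. Of all genes, 7.17% were called higher in WT and 8.07% in Padi4 KO. Gm5483, a stefin A gene next to Stfa2l1, had 60 and 50 counts in unstimulated WT and 326 and 299 after R848. The Padi4 KO libraries had 36 and 62 without stimulation and 368 and 317 with R848. It rose 6.61-fold in WT (log2 2.73, SE 0.14; edgeR adjusted p = 2.05e-82) and 7.13-fold in Padi4 KO (2.83, SE 0.14; adjusted p = 2.95e-86), and its level per kb after R848 was 1442 ± 231 scaled CPM in WT and 747 ± 60.8 in Padi4 KO (mean ± SD, n = 2). It was above Stfa2l1 in WT by more than the sum of their SDs, within that sum of Slpi in WT, and below Slpi in Padi4 KO. Of its 50-base windows, 35.6% also occur in 2010005H15Rik.

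BC100530, the near copy of Stfa1, rose 5.08-fold in WT (log2 2.34, SE 0.35; edgeR adjusted p = 2.14e-10) and 4.69-fold in Padi4 KO (2.23, SE 0.36; adjusted p = 9.97e-09). The Padi4 KO value was 1.63 without R848-treated Padi4 KO library 1. Of its 50-base windows, 48.9% were shared with other genes. Gm5416 had 2 and 2 counts in unstimulated WT and 10 and 10 after R848. The remaining genes of the cluster had few counts, 2010005H15Rik 0 to 8 and BC117090 0 to 3 in a library. BC117090 was not called in WT, and 2010005H15Rik was not called in Padi4 KO. For the difference of response 0 of these 5 genes were called with edgeR, with DESeq2 or at an unadjusted p below 0.05, where 4.71% of all genes were called with edgeR. In Padi4 KO, 1 of the 5 was called lower without stimulation (Gm5483) and 4 after R848, all but BC117090, with DESeq2 calling 1 and 2, where 14.4% and 7.81% of all genes were lower.

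**Figure D4:**
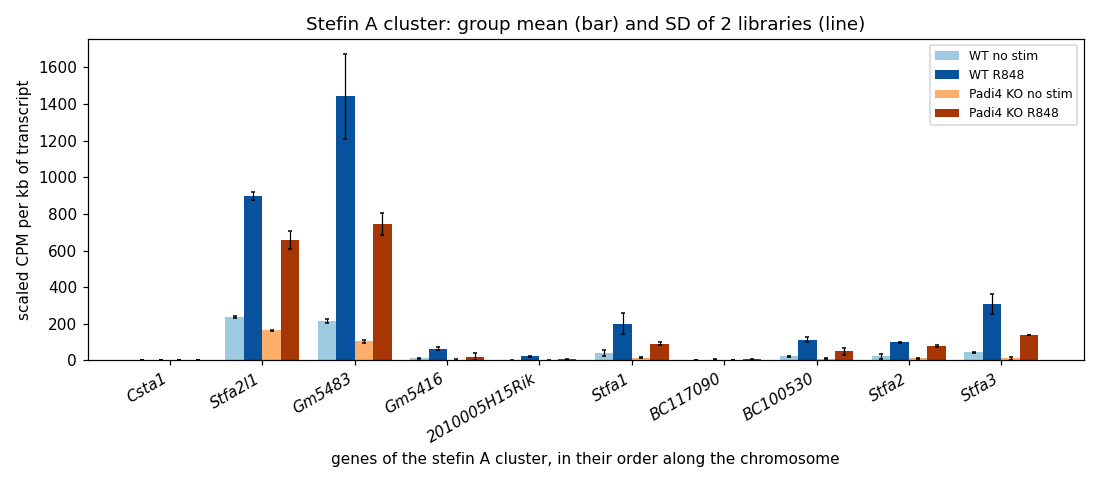
Scaled CPM per kb of transcript (vertical axis) of the 10 genes of the stefin A cluster in their order along the chromosome. Bars are group means and lines the SD of the 2 libraries. Gm5483 and Stfa2l1 have the highest bars, each higher after R848 than without stimulation in both genotypes.

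Other protease inhibitors outside the members were taken from a list of 47 genes, of which 27 were tested. After R848, 4 were higher and 6 lower in WT, where 7.17% of all genes were called higher and 10.8% lower, and 5 were higher and 6 lower in Padi4 KO, where 8.07% and 8.84% were. The 4 called higher in WT, Gm5483, BC100530, Gm5416 and 2010005H15Rik, are all genes of the stefin A cluster, and so were 4 of the 5 in Padi4 KO. The list's median log2 fold change over the 12 genes with at least 10 counts was -0.85 in WT and -0.45 in Padi4 KO. Gm5483 and BC100530 had the largest rises among those genes. Wfdc21, a gene of the whey acidic protein family to which Slpi belongs, was 1.99-fold higher in WT, just short of a call (log2 0.99, SE 0.081), and rose 2.38-fold in Padi4 KO (1.25, SE 0.077; edgeR adjusted p = 3.03e-57), a call lost with library size alone (0.87). Its WT value passed 2-fold with DESeq2 (1.07), relative log expression factors (1.07) and the replicate block (1.00), and without any 1 library other than unstimulated WT library 2 (1.00 to 1.23). Among the genes with at least 10 counts on average, the largest falls in WT were those of Pi16 (log2 -3.26, SE 0.16), Pebp1 (-2.20, SE 0.67), Serpinb10 (-1.95, SE 0.43) and Serpinb6a (-1.70, SE 0.39). Pi16 fell in Padi4 KO too (-3.05, SE 0.14; edgeR adjusted p = 6.52e-108). Pebp1 in WT lost its call without R848-treated WT library 2 (-1.43), and was -3.11 without library 1. The difference of response was called for 0 of the 27 with edgeR and 0 with DESeq2, and 2 had an unadjusted p below 0.05, where 4.71% of all genes were called with edgeR. In Padi4 KO, 3 were higher and 6 lower without stimulation, where 9.55% and 14.4% of all genes were, and 2 were higher and 5 lower after R848, where 9.46% and 7.81% were.

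Proteases of neutrophils and lysosomes were read from the same fit. The list of 34 holds serine proteases, cysteine cathepsins and metalloproteinases of the classes that the members inhibit, and also proteases outside those classes, such as the aspartic proteases Ctsd and Ctse. Of the 30 tested, 9 rose and 7 fell after R848 in WT, where 7.17% of all genes were called higher and 10.8% lower. In Padi4 KO 8 rose and 5 fell, where the shares over all genes were 8.07% and 8.84%. The median log2 fold change over the 22 proteases with at least 10 counts was -0.11 in WT and 0.12 in Padi4 KO. Among the serine proteases, Elane, neutrophil elastase, had 284 ± 5.55 scaled CPM in unstimulated WT and 106 ± 11 after R848 (mean ± SD, n = 2), a log2 fold change of -1.42 (SE 0.16; edgeR adjusted p = 8.52e-18), and -1.76 in Padi4 KO (SE 0.16; adjusted p = 7.41e-27). Prtn3, proteinase 3, fell from 258 ± 8.60 to 107 ± 9.51 in WT (log2 -1.27, SE 0.16) and had a log2 change of -1.95 in Padi4 KO (SE 0.15). Ctsg, cathepsin G, gave -0.57 and -0.81, under 2-fold, and its Padi4 KO value passed the rule with library size alone (-1.18). Plau, urokinase, the protease inhibited by Serpinb2, fell in WT (-1.31, SE 0.38; edgeR adjusted p = 0.00395), a call lost with DESeq2 (-1.21) and without either unstimulated WT library 1 (-1.01) or R848-treated WT library 2 (-0.69), and gave -0.86 in Padi4 KO, under 2-fold. The Padi4 KO value passed the rule with library size alone (-1.23) and without unstimulated Padi4 KO library 2 (-1.24) or R848-treated Padi4 KO library 2 (-1.29).

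The cysteine cathepsins bound by stefins went both ways. Ctsb, cathepsin B, rose from 262 ± 7.21 to 798 ± 6.93 scaled CPM in WT (mean ± SD, n = 2), 3.04-fold (log2 1.60, SE 0.11; edgeR adjusted p = 2.75e-49), and 3.02-fold in Padi4 KO (1.59, SE 0.086). Ctsl, cathepsin L, rose in WT (log2 2.66, SE 0.50) from 6 and 1 counts to 20 and 19, and in Padi4 KO (1.58, SE 0.26). The WT value of Ctsl was 4.31 without unstimulated WT library 1 and 1.98 without library 2, so its size rests on few counts. Ctss, cathepsin S, gave -0.84 in WT, short of a call, and fell in Padi4 KO (-1.27, SE 0.15). The WT value passed the rule with library size alone (-1.14) and without unstimulated WT library 1 (-1.14) or R848-treated WT library 1 (-1.01), and the difference of response was not called (-0.43, SE 0.34; edgeR adjusted p = 0.644). Ctss is also among the monocyte and macrophage markers. Ctsh gave -0.34 and -0.07 and was not called.

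Of the metalloproteinases bound by Timp2, Mmp8, neutrophil collagenase, had 6618 ± 117 scaled CPM in unstimulated WT and 2246 ± 231 after R848 (mean ± SD, n = 2), a 2.95-fold fall (log2 -1.56, SE 0.068; edgeR adjusted p = 2.53e-112), with a 2.73-fold fall in Padi4 KO (-1.45, SE 0.068). Mmp9, gelatinase B, gave -0.19 and 0.09, under 2-fold in both, and the Padi4 KO value turned to -0.28 with library size alone. Mmp14, a membrane-bound metalloproteinase, rose in WT (log2 3.74, SE 0.73), from 0 and 2 counts to 8 and 17, and in Padi4 KO (3.49, SE 0.30), from 5 and 9 to 81 and 76. The unstimulated WT level was under the limit of 3 counts, and the WT value was 7.39 without unstimulated WT library 2 and 2.73 without library 1. Adam17 rose 6.11-fold in WT and 5.21-fold in Padi4 KO, and Ctsa fell 4.29-fold in WT. In Padi4 KO Ctsa gave a log2 change of -0.99 (SE 0.17; edgeR adjusted p = 4.39e-08), just under 2-fold, and passed the rule with DESeq2 (-1.09), filterByExpr (-1.05), relative log expression factors (-1.08), library size alone (-1.37) and in 4 of 8 fits that left out 1 library (-1.30 to -1.12).

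**Figure D5:**
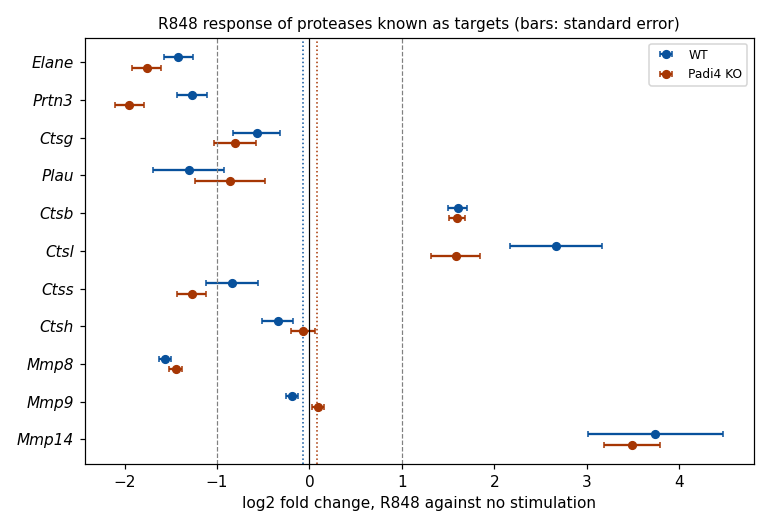
Log2 fold changes after R848 with bars of 1 standard error for 11 proteases that the members are known to inhibit, in WT and Padi4 KO. Dashed lines mark 2-fold and dotted lines the median of all genes with at least 10 counts. Elane, Prtn3 and Mmp8 lie left of the 2-fold line and Ctsb, Ctsl and Mmp14 right of it in both genotypes.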

How the data were processed

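The authors trimmed the reads with cutadapt 1.16, filtered them by quality, mapped them to mm10 with STAR 2.5.3a and counted them on genes with HTSeq 0.6.1p1. The deposited values are raw counts per gene symbol. The annotation, strand setting and read length are not given in the sources used here. Of all reads in the table, 87.0% to 89.5% were counted on genes, the HTSeq summary lines were left out, and the line for non-unique alignments is 0 in every library. Genes overlapping others and near-identical copies are therefore uncertain.

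Genes with at least 1 count in at least 2 libraries were tested, 12254 of 24421. One model with a mean for each of the 4 groups was fitted by the robust quasi-likelihood method of edgeR 4.0.16 with TMM factors (R 4.3.3, limma 3.58.1), with Benjamini-Hochberg adjustment over all genes tested. A response to R848 needed a false discovery rate under 0.1 and a change over 2-fold, other contrasts only the former. Intervals are the estimate ± 1.96 standard errors. CPM are scaled by the TMM factors, except marker sums and the limit of 3 counts, which use library totals. Libraries of 1 group differed by more than or about sampling noise (chi-square per degree of freedom 1.05 to 1.67) and were kept as 2 libraries. The methods describe duplicates, so the 2 may be repeats of 1 sample, which these values cannot settle. Groups and replicate numbers come from the labels.

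The alternatives were DESeq2 1.42.0 (the tool named in the methods), other filters and scalings, a replicate block, a false discovery rate of 0.05, the 4 stefin copies summed, and each library left out. The model was tested on simulated data. Positions and transcripts are from GENCODE M21 on GRCm38, aligned with MAFFT 7.526. Named besides the members were fixed target proteases, the strongest risers and fallers of each list (4 each for inhibitors, 3 each for proteases) and up to 5 genes by difference of response. The other genes of the stefin cluster and the differences of Prtn3 and Ctsc were named after their values were seen. The members and lists were chosen with earlier results of these data known.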

Additional observations from a re-analysis of the deposited data

Results flagged for a closer look

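No group held 4 libraries, so single libraries were not checked against the others of a group. Among the members, the other inhibitors and the proteases, 7 of the 30 proteases tested had an R848 response that differed between the genotypes at a false discovery rate below 0.1 in edgeR, where 4.71% of all genes did. The difference of log2 responses, Padi4 KO minus WT, was 1.18 for Ctse (adjusted p = 0.000594) and 1.10 for Ctsa (adjusted p = 0.0529). It was 0.34 for Ctsd (adjusted p = 0.0396) and 0.28 for Mmp9 (adjusted p = 0.0523). It was -0.49 for Adam8 (adjusted p = 0.00343), -0.68 for Prtn3 (adjusted p = 0.0888) and -0.90 for Ctsc (adjusted p = 0.0703). The median of all genes in this contrast was 0.18 with the TMM scaling and 0.02 with relative log expression factors. Ctse and Adam8 kept their calls with DESeq2, relative log expression factors and library size alone, whereas Ctsd, Mmp9 and Ctsa lost theirs with each of these. In that order of settings, Ctsa gave 0.94, 0.95 and 1.03, Ctsd 0.19, 0.19 and 0.27, and Mmp9 0.12, 0.12 and 0.21. When 1 library was left out, Ctsd was not called in 8 of 8 cases (0.061 to 0.36), Mmp9 in 7 of 8 (-0.086 to 0.30) and Ctsa in 6 of 8 (0.66 to 1.32). Prtn3 and Ctsc lost theirs with DESeq2 (-0.83 and -1.06), and their values ranged from -1.20 to -0.65 and from -1.29 to -0.80 when 1 library was left out, with the call lost in 6 of 8 and 4 of 8 cases. With the replicate block Prtn3 was -0.66 and no longer called. Without R848-treated WT library 1, the Ctse difference was 0.80 and no longer called.

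Ctse had 95.9 and 123 scaled CPM in unstimulated WT, 46.9 and 54.9 in WT after R848, 167 and 184 in unstimulated Padi4 KO and 196 and 182 in Padi4 KO after R848. Adam8 had 979 and 986 scaled CPM in unstimulated WT, 1105 and 958 in WT after R848, 699.9 and 709 in unstimulated Padi4 KO and 514 and 540.4 in Padi4 KO after R848.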

How the results depend on the processing

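Over 697 comparisons of a member's own value with an alternative, 627 kept their direction and side of the threshold, 48 changed sign, 11 gained a call and 11 lost one. With the 4 stefin copies summed to 1 row, 3 rows were called in each response and 4 in each genotype comparison, in place of 6 genes, since fewer rows were tested. In unstimulated neutrophils 4 members were lower with library size alone and 5 with DESeq2. The other counts of members called stayed within 1.5 times of 6, and the difference of response stayed at 0. Leaving out 1 library gave 6 to 7 members in the WT and the Padi4 KO response, 0 to 0 for the difference, 4 to 6 without stimulation and 6 to 6 after R848.

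With library size alone, signs turned for Cst3 in the WT response (-0.25), the Padi4 KO response (-0.23), without stimulation (0.17) and after R848 (0.18), for Cstb after R848 (0.11), and for Adam8 in WT (-0.24), Mmp9 (-0.28) and Ctse (-0.28) in Padi4 KO. For the difference of response the values were -0.096, -0.092 and -0.0081 for Slpi and -0.12, -0.12 and -0.041 for Serpinb1a with DESeq2, relative log expression factors and library size alone. With the first 2 of these they were -0.069 and -0.068 for Stfa2l1 and -0.065 and -0.068 for Cst3. The cause was not tested.

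Signs also turned when 1 library was left out. For the difference the ranges were -0.22 to 0.13 for Slpi, -0.37 to 0.54 for Stfa1, -0.36 to 1.19 for Stfa2, -0.23 to 0.10 for Stfa2l1, -0.26 to 0.14 for Serpinb1a, -0.16 to 0.37 for Cstb, -0.31 to 0.11 for Cst3, -0.59 to 0.051 for Timp2 and -0.086 to 0.30 for Mmp9. Without stimulation they were -1.52 to 0.034 for Stfa2 and -0.14 to 0.029 for Cst3, and after R848 -0.29 to 0.030 for Cst3. In Padi4 KO they were -0.031 to 0.16 for Cst3, -0.059 to 0.11 for Mmp9 and -0.10 to 0.18 for Ctse, and in WT -0.20 to 0.043 for Mmp9.

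Over all genes, DESeq2 called 1289 in place of 2072 in the Padi4 KO response, 125 in place of 577 for the difference, 1061 in place of 2933 without stimulation and 1008 in place of 2116 after R848. Leaving out 1 library gave 268 to 471 for the difference and 1944 to 2795 without stimulation. Of all calls, the share lower in Padi4 KO was 60.1% without stimulation and 45.2% after R848 with TMM, 53.4% and 57.9% with relative log expression factors, 55.2% and 61.6% with DESeq2, and 22.8% and 18.2% with library size alone. For the difference it was 26.7% with TMM, 59.3% with relative log expression factors, 72% with DESeq2 and 40% with library size alone. For the responses it was 60.2% in WT and 52.3% in Padi4 KO with TMM, 77.0% and 76.9% with library size alone and 47.0% and 46.5% with DESeq2.

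Libraries with the same replicate number did not deviate together (correlations of -0.020 to 0.020 over 6912 genes). Libraries of a group differed by about sampling noise or somewhat more, so these correlations cannot tell whether the numbers pair the samples. With the replicate number as a block, 6 members were called in each response, 0 for the difference and 6 in each genotype comparison. The depth allowed no fold for Serpinb2, with 0 or 1 count in a library, and left unstimulated libraries of Stfa2 and Stfa3 with 2 to 11 counts.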
